A study of Mus musculus with 2 samples.

Results

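The 8 loci described here were windows of 70 to 170 kb named for genes of T cell identity, namely Tcf7, Bcl11b, Gata3, Ets1, Lef1, Cd4, Cd8a and Rag1. The members were the intervals (enriched regions, or peaks) of a KLF4 chromatin immunoprecipitation sequencing (ChIP-seq) list that overlapped these windows by at least 1 base. There were 63 such intervals of 8148 in the list. Intervals were selected on their positions alone, but the windows were chosen with the intervals, widths and heights of this list already known, so the values below are a description and carry no test.

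The library came from bone marrow cells sorted as GFP+, CD4+ and CD8+ at 4 weeks after transplantation, from mice in which NOTCH1 induced acute lymphoblastic leukaemia of T cells (T-ALL). Both libraries of the series, the ChIP and an input (sheared DNA without antibody), carry the strain name Klf4flox/flox vav-Cre on C57BL/6. This is a floxed Klf4 allele with Cre recombinase driven by Vav regulatory sequence, active across blood cells. The genotype label is KLF-4 KO for the ChIP library and Normal for the input, so the labels do not settle whether the antibody had its target, and no interval is called a KLF4 site here. No values of the input were used, no condition was compared, and 1 ChIP library gives no replicate error. The list names no genes, so the labelled cell type could not be checked against the expression of its markers.

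KLF4 belongs to the Krüppel-like factors, zinc finger proteins that bind CACCC boxes and GC-rich sites, and it restrains proliferation in several blood lineages. T cell identity is set in the thymus, where Notch signalling induces TCF-1 (the product of Tcf7) and GATA3, and BCL11B then closes off other lineages. Precursors rearrange their antigen receptor genes with the RAG recombinase, and pass through a stage with both the CD4 and the CD8 co-receptor, the stage named by the sort used here.

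The letters at the starts of these genes are shown because a KLF factor would be looked for first at CACCC and GC boxes. RefSeq promoter sequence (GRCm38.p6) was matched for 6 of the 8 members, Ets1 and Cd4 having no match. The 4 members with a single listed start are printed, each as the 250 bases before the start, 5′ to 3′ along the gene, with matches on either strand to CACCC, which reads GGGTG when it lies on the other strand, in capitals. Matches on either strand to the GC box GGGCGG are also in capitals. The coordinates that follow are GRCm38.p6, not the mm9 build of the intervals, so the 2 cannot be laid over each other, and whether any interval covers these bases was not examined.
Bcl11b (chr12:108003415-108003664, minus strand): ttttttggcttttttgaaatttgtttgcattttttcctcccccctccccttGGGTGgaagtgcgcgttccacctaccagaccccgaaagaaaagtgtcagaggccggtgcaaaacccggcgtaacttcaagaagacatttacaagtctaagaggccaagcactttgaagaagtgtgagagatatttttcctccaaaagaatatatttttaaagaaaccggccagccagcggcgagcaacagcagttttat
Gata3 (chr2:9878601-9878850, minus strand): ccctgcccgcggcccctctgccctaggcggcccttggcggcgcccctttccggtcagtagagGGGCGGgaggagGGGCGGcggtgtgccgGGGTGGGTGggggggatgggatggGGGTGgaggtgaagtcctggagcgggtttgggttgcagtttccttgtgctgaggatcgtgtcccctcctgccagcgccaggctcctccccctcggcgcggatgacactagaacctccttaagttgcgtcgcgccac
Cd8a (chr6:71373177-71373426, plus strand): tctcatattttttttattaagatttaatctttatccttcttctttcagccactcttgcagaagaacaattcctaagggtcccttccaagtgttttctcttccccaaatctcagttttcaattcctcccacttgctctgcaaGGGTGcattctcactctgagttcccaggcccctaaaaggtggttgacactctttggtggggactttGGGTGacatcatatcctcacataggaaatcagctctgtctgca
Rag1 (chr2:101649533-101649782, minus strand): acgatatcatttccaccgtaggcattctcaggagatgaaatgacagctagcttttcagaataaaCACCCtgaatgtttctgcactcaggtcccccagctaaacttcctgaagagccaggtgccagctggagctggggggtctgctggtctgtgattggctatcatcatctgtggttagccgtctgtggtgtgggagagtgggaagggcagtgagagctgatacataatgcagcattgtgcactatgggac

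Every member with a sequence held CACCC on at least 1 strand before at least 1 of its starts. That motif is common, being present in 52.0% of the 32851 RefSeq promoters cut to the same length. The Gata3 sequence held 3 matches, of which 2 share a base, and Cd8a held 2, all of these as GGGTG on the printed strand. Bcl11b held 1 match, as GGGTG, and Rag1 held 1, as CACCC. The GC box GGGCGG was found in 32.7% of all promoters and, among the members, in Gata3 (2 matches), Tcf7 and Lef1. Tcf7 has 2 listed starts with 2 CACCC matches each, and Lef1 has 4 with 1 to 3. The 52.0% and 32.7% are shares of promoters, whereas Tcf7 and Lef1 had more than 1 promoter in which to match. No CACCC match overlapped a GGGCGG match in any of these sequences. A match describes letters in a window and is not a binding site.

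All 8 windows held at least 1 interval, and together they held many more intervals, but not taller ones, than the list as a whole. Windows of the same length laid end to end over the span of each chromosome held an interval in 14.2% (70 kb), 15.6% (80 kb), 20.3% (120 kb), 22.5% (140 kb) and 25.1% (170 kb) of cases. These tiled windows include long stretches without genes, which the named windows by their choice do not, and gene density was not matched. Tiles that overlap the 8 loci were kept, here and in the shares given below. The 63 intervals gave 7.88 per 100 kb of window, against 0.321 per 100 kb over the span of the list, a ratio of 24.5. They covered 113202 of 800 kb, or 14.2% of the windows, against 0.423% of the span of the list, a ratio of 33.4.

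Peak height is the authors' score for each summit, a whole number whose scale is not stated. Its median was 14 in the 8 windows (quartiles 12 and 17) and 15 in the list (quartiles 13 and 19). A height at or above the list's median of 15 was reached by 28 of the 63 intervals (44.4%), against 57.3% of the list. A height of 20 was reached by 13 (20.6%), against 23.9%. Widths spread to both sides of the list. The median width was 1071 bp against 1137 bp, yet 9 of the 63 intervals (14.3%) were 2500 bp or wider, against 5.03% of the list. These 9 lay in the Tcf7, Ets1, Gata3, Lef1 and Cd4 windows.

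**Figure D1:**
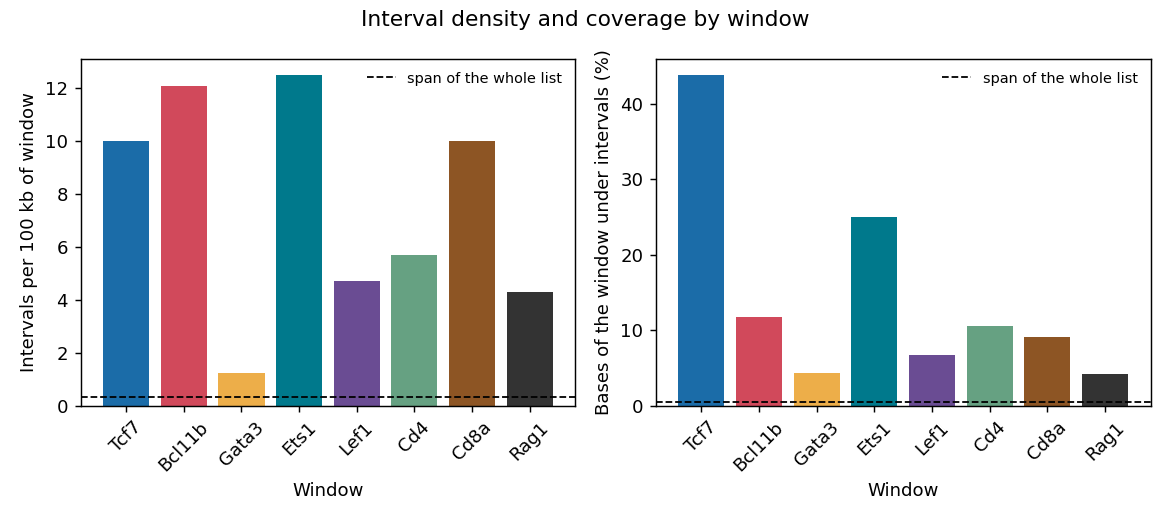
Bars give, for each of the 8 windows, the intervals per 100 kb (left) and the percent of its bases under intervals (right), and the dashed lines give the same over the span of the whole list (0.321 per 100 kb and 0.423%). Ets1 (12.5) and Bcl11b (12.1) had the highest densities and Gata3 (1.25) the lowest, and coverage was highest at Tcf7 (43.8%) and Ets1 (25.0%).

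The loci differed from one another in form. Tcf7 and Ets1 held 57.4% of the covered bases of all 8 windows. Of the 8 Tcf7 intervals 3 were 2500 bp or wider and 4 reached a height of 20, and of the 15 Ets1 intervals 3 and 5 did so. Bcl11b held the most intervals, 17, with a median width of 906 bp and no height above 16. Gata3 held a single wide interval. Without Tcf7 and Ets1, a set chosen after the values were seen, the other 6 windows held 40 intervals with a median width of 906.5 bp and a median height of 13, and coverage was 8.03%. All positions below are mm9.

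Tcf7 encodes TCF-1, an HMG-box factor at the head of the T cell programme. Its window, chromosome 11 from 52040001 to 52120000, held 8 intervals that covered 35031 bp, 43.8% of the window. Only 1 of 31691 tiled windows of 80 kb (0.00316%) was covered as much, and it overlapped the Tcf7 window itself. Windows with 8 or more intervals numbered 36 (0.114%). Outside the 8 loci, 0 windows were covered as much and 32 held 8 or more intervals. The shares by covered bases, here and below, rest on 1 placing of the tiles, since other sets of tiles were run for interval counts only. Whether a differently placed window elsewhere was covered as much was not examined.

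Of the 8 intervals at Tcf7, 7 formed an almost unbroken block of 35.7 kb from 52062616 to 52098297, with 93.9% of its bases under intervals and gaps of 32 to 723 bp. From low to high coordinate, the widths in the block were 9922, 1738, 1524, 783, 6311, 1058 and 12159 bp. Their heights, in the same order, were 23, 11, 15, 17, 23, 13 and 32. The block was therefore 3 broad intervals with narrower, lower ones between them. Of the narrower ones, those of 1738 and 1524 bp still exceeded the list's median width of 1137 bp, and those of 783 and 1058 bp did not. The interval of 12159 bp ranked 2 of 8148 in width and 183 in height (33 intervals share that height), with its summit 3686 bp from its low-coordinate end. The one of 9922 bp ranked 4 in width but 915 in height, and the one of 6311 bp ranked 25 and 915. These 3 intervals were far higher in the order of widths than in that of heights, but they were picked here for their width.

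The eighth Tcf7 interval stood apart at 52044981 to 52046516, 16099 bp before the block, and had a height of 21. No interval lay in the last 21.7 kb of the window. In the RefSeq gene order (GRCm38.p6) the protein-coding neighbours of Tcf7 are Skp1 and Vdac1, and no interval was assigned to a gene. The nearest interval beyond the window began 3.17 kb after it, with a height of 14.

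Lef1 encodes the other HMG-box factor of this family in T cells, LEF-1, which acts together with TCF-1. Its window, chromosome 3 from 130780001 to 130950000, was the longest and held 8 intervals, as many as Tcf7, but covered only 11447 bp (6.73%). Heights ran from 11 to 20 and widths from 582 to 3394 bp. The widest interval, at 130812759 to 130816152 with a height of 17, lay 42.7 kb from the next, which had a height of 12. The gaps on the 2 sides of that next interval, 42706 and 42485 bp, were below the list's median gap of 52.7 kb. The tallest lay at 130911106 to 130912363, with a height of 20, within a loose group of 6 intervals over 28.7 kb. That group had 24.1% of its bases under intervals, against 93.9% in the Tcf7 block. Of 14910 windows of 170 kb, 0.704% held 8 or more intervals and 0.731% were covered as much.

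Gata3 encodes a zinc finger factor required for T cell commitment and for CD4 cells. Its window, chromosome 2 from 9750001 to 9830000, held 1 interval, at 9798178 to 9801670. The interval was 3493 bp wide, rank 143 of 8148, while its height of 15 equalled the median of the list. Its summit lay 390 bp from its high-coordinate end. It covered 4.37% of the window, and the longest free stretch was the 48.2 kb before it. Beyond the window the nearest intervals were 3110 kb before and 140 kb after. A single interval was no rarity, since 15.6% of windows of 80 kb held at least that, and 2.15% were covered as much.

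Bcl11b encodes a zinc finger factor of T cell commitment that is also a tumour suppressor in T-ALL. Its window, chromosome 12 from 109130001 to 109270000, held 17 intervals, the most of the 8. The heights ran from 9 to 16, with a median of 13, and the widths from 606 to 1882 bp, with a median of 906 bp. None reached a height of 20, and 5 of the 17 (29.4%) reached the list's median of 15, which 57.3% of the list did. The lowest, of height 9 at 109186230 to 109187188, ranked 8024 of 8148. As many intervals were held by 1 of 18104 windows of 140 kb (0.00552%), which was outside the 8 loci. The share was 0.0166% when the tiles were shifted by 0.5 of a window and 0.0246% among windows with at least 1 interval. In bases covered, 16575 bp or 11.8%, the window was matched or passed by 28 (0.155%).

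The Bcl11b intervals fell into 4 groups when divided at gaps of more than 10 kb. The first had 9 intervals over 20015 bp, from 109146807 to 109166821, with heights of 11 to 15. The last had 4 over 6.04 kb, from 109235740 to 109241780, with heights of 12 to 16, and it included the tallest interval of the locus. Between these end groups lay 2 pairs with heights of 9 to 15. The nearest intervals outside the locus were 731 kb before and 146 kb after the window. The protein-coding neighbour on the high-coordinate side is Setd3 in the RefSeq gene order.

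Ets1 encodes an ETS-domain factor that cooperates with RUNX proteins at T cell enhancers. Its window, chromosome 9 from 32480001 to 32600000, held 15 intervals and the tallest of all 63. That interval, at 32503001 to 32506098, had a height of 35 (rank 116 of 8148, shared by 24 intervals) and a width of 3098 bp. The next began after a gap of 3 bp, at 32506102, and had a height of 28 over 4245 bp. These abutting intervals opened a group of 9 over 25.6 kb, to 32528593, whose heights were 35, 28, 16, 23, 10, 18, 11, 26 and 11. Tall and low intervals thus alternated after the first pair.

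A second Ets1 group, of 4 intervals over 17.9 kb from 32551919 to 32569806, had heights of 24, 15, 12 and 19. Its last interval was the widest of the locus, at 4514 bp. Between the groups a single interval of height 14 lay at 32539051 to 32539963. The last 30.2 kb of the window held none. In all, 29966 bp (25.0%) were covered, and of 21124 windows of 120 kb 3 (0.0142%) were covered as much and 4 (0.0189%) held 15 or more intervals, all of them outside the 8 loci. With shifted tiles the share with as many intervals was 0.00947%. The first Ets1 interval straddled the edge of the window, with 411 of its 970 bp inside and its summit outside. Fli1, another ETS-family gene, is the neighbour on the low-coordinate side.

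**Figure D2:**
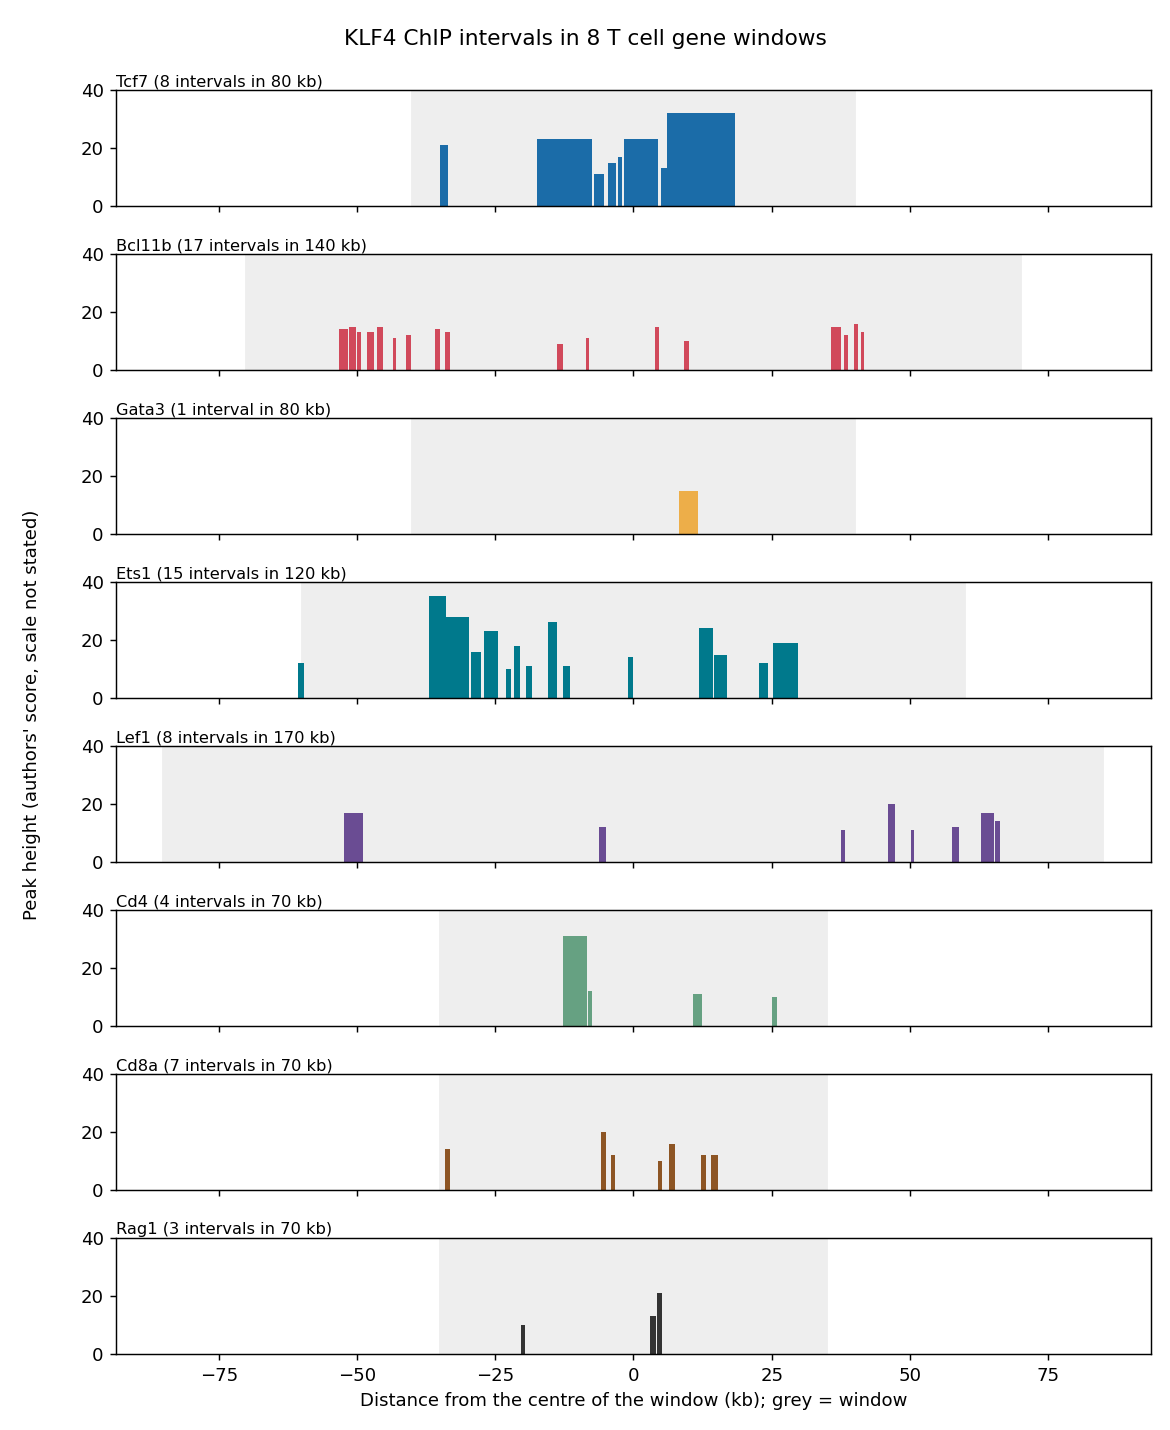
Each row is 1 window (grey), with intervals drawn to scale as bars whose width is the interval's width and whose height is the authors' peak height, against the distance in kb from the centre of the window. The Tcf7 block of 7 intervals, the 2 large Ets1 groups, the 17 Bcl11b intervals, none above a height of 16, and the single Gata3 interval can be seen.

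Cd4 and Cd8a encode co-receptors that bind MHC class II and class I, and their windows, both on chromosome 6, differed in make-up. The Cd4 window, 124790001 to 124860000, held 4 intervals, of which 1 was large. It lay at 124812279 to 124816579 and had a height of 31 (rank 216 of 8148) over 4301 bp (rank 74). The others had heights of 12, 11 and 10 and widths of 851, 1488 and 803 bp, so none of them reached the list's median height. The interval of height 12 followed the large one after 155 bp. Cd4 lies between Gpr162 and Lag3, the latter encoding an inhibitory receptor, and which of these genes lies nearest to each interval was not examined.

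The Cd8a window, 71290001 to 71360000, held 7 intervals of 735 to 1289 bp, none of them broad. Their heights, from low to high coordinate, were 14, 20, 12, 10, 16, 12 and 12. The tallest lay at 71319191 to 71320097 and opened a group of 6 intervals over 21.0 kb. Cd8a had more intervals than Cd4, but they covered fewer bases, 6358 bp (9.08%) against 7443 bp (10.6%). Among 36222 windows of 70 kb, 0.113% held as many intervals as Cd8a and 0.961% as many as Cd4. Of these, 36 of 41 for Cd8a and 339 of 348 for Cd4 lay outside the 8 loci. By bases covered, 0.58% matched or passed Cd8a and 0.411% matched or passed Cd4. Cd8b1, which encodes the partner chain of CD8, is the neighbour on the low-coordinate side. An interval of height 14 ended 95 bp before the Cd8a window and was not counted. For Cd4, one of height 26 and 2167 bp ended 9.27 kb before the window.

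Rag1 encodes a subunit of the recombinase that cuts antigen receptor genes, and its neighbour Rag2 encodes the other. The window, chromosome 2 from 101450001 to 101520000, held 3 intervals and had the lowest coverage of the 8, 2889 bp or 4.13%. A pair 93 bp apart lay at 101487989 to 101490136, with heights of 13 and 21 and widths of 1153 and 902 bp. The third, at 101464627 to 101465460, had a height of 10. The height of 21 in an interval narrower than the list's median made this the tallest of the narrow intervals in the 8 windows. Of the windows of 70 kb, 1.92% held 3 or more intervals and 2.51% were covered as much.

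Closely spaced intervals occurred at every locus with more than 1 interval. Of the 55 pairs of neighbouring intervals within a window, 24 (43.6%) were at most 1 kb apart, against 8.32% of the 8127 pairs in the list. The median gap was 1.16 kb, against 52.7 kb. Runs of 3 or more intervals linked by such gaps occurred at 3 loci, with 7 at Tcf7, 4 at Ets1 and 3 at Bcl11b. Since a pair had to lie inside 1 window to be counted here, the gaps were limited by the length of the windows.

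Height and width went together across the 63 intervals (Spearman rho = 0.59, a description across intervals of 1 library), as they did across the list (0.53). The relation was visible at Ets1 (rho = 0.74, n = 15) and weak at Bcl11b (0.31, n = 17), where all heights lay within 9 to 16. At the loci with fewer intervals, rho was 0.84 at Lef1 (n = 8), 0.68 at Tcf7 (n = 8) and 0.59 at Cd8a (n = 7). It was 0.8 at Cd4 (n = 4) and 0.5 at Rag1 (n = 3).

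**Figure D3:**
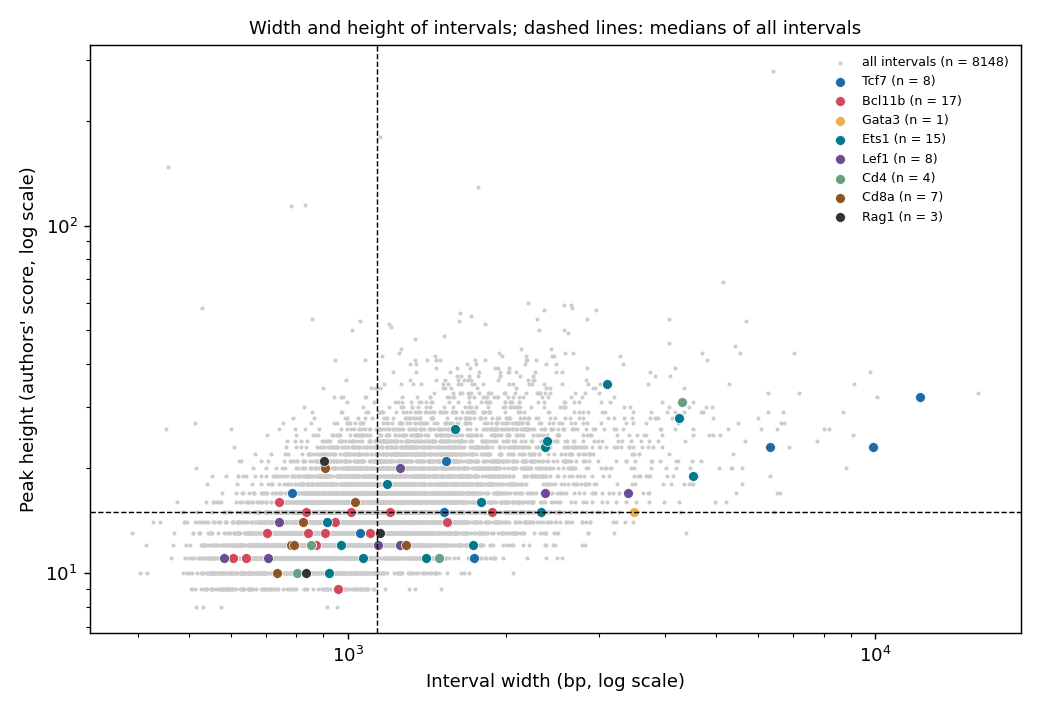
Each point is 1 interval, with its width in bp and its height (the authors' score), both on log axes, for the whole list (grey) and the 8 windows (colours), and the dashed lines are the medians of the list (1137 bp and 15). The 3 broad Tcf7 intervals lie at the right edge of the list, the Bcl11b points lie at heights of 9 to 16, and no member exceeds a height of 35, while the list reaches 278.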

How the data were processed

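One KLF4 ChIP-seq list was analysed. Per the submitters' processing notes, BWA 0.6.1, SICER 1.1 and MACS and the builds hg19 and mm9 were used, with no role given, and positions are taken as mm9. How peaks were called, filtered or set against the input is not given in the sources used here. The authors deposited summits with a score and intervals as positions in bp, in 2 tracks per the file headers. The scale of the score is not stated. Depth is unknown, so no interval for depth can be given.

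Summits and intervals were joined by row order, and 8148 of 8148 summits lay inside their interval. Starts are printed counted from 1. Intervals were kept where they overlapped a window by at least 1 base. Ranks count the taller or wider intervals in the list. Same-length windows were tiled from the first to the last interval of each chromosome and counted by the same rule. The counting was tested on 1 simulated list of 1 chromosome.

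The members, windows and lists were chosen with earlier results of these data known. Every interval in a window is described, with the nearest one outside. RefSeq tables (GRCm38.p6) gave gene order and promoter sequences, all 8 genes matching by symbol in the first and 6 in the second. No mm9 annotation was used here. Alternatives were the summit rule, 50% of the interval inside, heights at or above the median, merging within 1 kb, windows extended by 50 kb, and other sets of tiled windows. Calculations used Python 3.11.15, numpy 2.4.6, pandas 2.3.3 and scipy 1.17.1.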

Additional observations from a re-analysis of the deposited data

How the results depend on the processing

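All 8 loci kept at least 1 interval under each alternative run for that count. The 63 intervals became 28 when those under the median height of 15 were left out and 39 when intervals within 1 kb were merged, and otherwise numbered 62 to 77. Of 40 counts by locus and alternative, 29 stayed within 1.5 times and 11 did not. Merging took Tcf7 from 8 to 2, Bcl11b from 17 to 11 and Ets1 from 15 to 8. The height limit took Bcl11b to 5, Ets1 to 9, Lef1 from 8 to 3, Cd4 from 4 to 1, Cd8a from 7 to 2 and Rag1 from 3 to 1. Extending the windows by 50 kb took Cd4 to 9 and Cd8a to 12. The share of same-length windows with as many intervals rose when only windows with an interval were used, to 0.727% for Tcf7, 0.0246% for Bcl11b (from 0.00552%), 100% for Gata3 (by construction), 0.0934% for Ets1, 2.81% for Lef1, 6.74% for Cd4, 0.794% for Cd8a and 13.4% for Rag1. On the chromosome of the locus alone, an alternative chosen after seeing the data, it was 0.338% for Tcf7 and 0% for Bcl11b and Ets1. The share there was 18.3% for Gata3, 0.224% for Lef1, 0.484% for Cd4, 0.0484% for Cd8a and 1.92% for Rag1. Some of these rest on few windows, with 5 for Tcf7, 2 for Lef1 and 1 for Cd8a. Tiles overlapping the locus were kept, and the 0% arose where tile edges cut across the locus itself. Tiles shifted by 0.5 of a window gave 0.0166% for Bcl11b and 0.00947% for Ets1 (from 0.0189%), on 1 to 4 windows each, and for the other 6 loci 0.0915% to 15.6%, each within 1.5 times. The cause was not tested. No paired analysis was possible because 1 list from 1 library was used, and no replicate could be left out. The unknown depth and threshold limit what a stretch without intervals means.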
